A study of Mus musculus with 9 samples.

Results

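The 42 genes described here encode the enzymes of the tricarboxylic acid (TCA) cycle and the routes by which pyruvate, malate and glutamine carbon enter it. They were taken from a fixed list of gene symbols, matched to the 55471 gene identifiers of the count files through GENCODE M21. The rule used no measured value, but the list was drawn up with earlier results of these data known. All 42 were found, and 38 had enough reads to be tested. RNA was sequenced from 9 libraries of CD8+ T cells from OT-I mice, whose T cell receptor recognises an ovalbumin peptide. The 4 control libraries came from cells that carried Bdh1 (Bdh1-WT) and an shRNA against firefly luciferase (shCtrl). The 5 DKO libraries came from Bdh1-KO cells that carried an shRNA against Oxct1 (shOxct1), so 1 of the 2 genes was knocked down and not deleted. The labels give both groups the same other steps. Naive cells were stimulated in culture through CD3 and CD28 with IL-2, transduced, sorted for the Ametrine reporter, and transferred into CD45.1 C57BL/6 hosts. Infection with LmOVA, ovalbumin-bearing Listeria monocytogenes, followed. CD45.2 Ametrine+ cells were sorted back on day 7 of infection. The labels do not say whether the libraries of a group came from separate mice, so p-values measure only the spread between these libraries, which may be technical. Levels are CPM, counts scaled to a common library size and composition. In bulk RNA, fewer cells with a transcript and less RNA per cell cannot be told apart.

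The TCA cycle oxidises acetyl-CoA to carbon dioxide and passes the electrons to the respiratory chain. Acetyl-CoA comes from pyruvate through the pyruvate dehydrogenase complex, from fatty acids, and from ketone bodies through BDH1 and OXCT1, while glutamine feeds the cycle at 2-oxoglutarate and pyruvate carboxylase at oxaloacetate. Activated T cells are known for heavy use of glucose and glutamine, and citrate that leaves the mitochondrion supplies acetyl-CoA for lipid synthesis and histone acetylation. The comparison asked whether the transcripts of the other entry routes were higher when ketone use was blocked.

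The targeted genes were low in the libraries labelled DKO. Oxct1, the CoA transferase that activates acetoacetate, measured 71.5, 62.2, 59.8 and 59.2 CPM in control replicates 1 to 4 and 4.61, 5.49, 5.09, 5.51 and 5.12 CPM in DKO replicates 1 to 5. It fell by 3.61 on the log2 scale (SE 0.10, edgeR's quasi-likelihood test, Benjamini-Hochberg, adjusted p = 4.58e-09). Bdh1, which oxidises beta-hydroxybutyrate to acetoacetate, stood at 25.1, 35.1, 30.3 and 31.5 CPM in control and 11.6, 11.6, 11.4, 8.98 and 9.63 CPM in DKO, and fell by 1.52 (SE 0.13, same test, adjusted p = 1.36e-04). Neither gene overlapped between the groups. All 8 CD8 T cell markers were above 1 CPM on average, and Cd4 was between 0 and 0.663 CPM. Libraries held 45205993 to 59853080 counts in genes. Control replicate 1 lay apart from the other 8 libraries on the first principal component over all genes (28.7% of variance, -79.1 against -7.25 to 23.5), and control replicate 3 lay apart on the second (21.8%, -70.2 against -5.59 to 20.2). Across the 38 tested genes, control replicate 1 was the highest control library for 18 and the lowest for 10.

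In the DKO cells 1 of the 38 tested genes rose, Aco1, and none fell. That is 2.63% of the tested genes, beside 2.83% of all 14918 genes tested (1.32% higher and 1.51% lower in DKO). At an unadjusted p under 0.05 there were 7 genes, Aco1 and Cs on the higher side and Me2, Suclg2, Sucla2, Pdk1 and Pdk2 on the lower side, which is 18.4% beside 16.0% of all genes. For 5 genes the libraries of the groups did not overlap in CPM, Aco1 and Cs with all DKO libraries above control and Me2, Suclg2 and Sucla2 with all below, which is 13.2% beside 8.71% of all genes. These shares were near those of the whole transcriptome. The median log2 fold change was -0.054 over the 38 genes and -0.0091 over all genes, with 15 fitted values above 0 and 23 below. The summed level of the 42 genes was 4402 to 4743 CPM in control and 4520.2 to 4700.0 CPM in DKO, with the DKO range inside that of control.

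The precision of these libraries limited how large an undetected difference could be. The 95% interval of the log2 fold change lay within 0.5 of 0 in both directions for 30 of the 38 genes and within 1 for 35. The 3 genes with wider intervals were Pdk2, Pcx and Gpt2. Over all tested genes, intervals within 0.5 made up 42.6% and intervals within 1 made up 74.1%. A log2 difference of 0.2 or more in the fitted value was seen for 11 of the 38 genes. The plot of fold changes by step sets these intervals side by side.

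**Figure D1:**
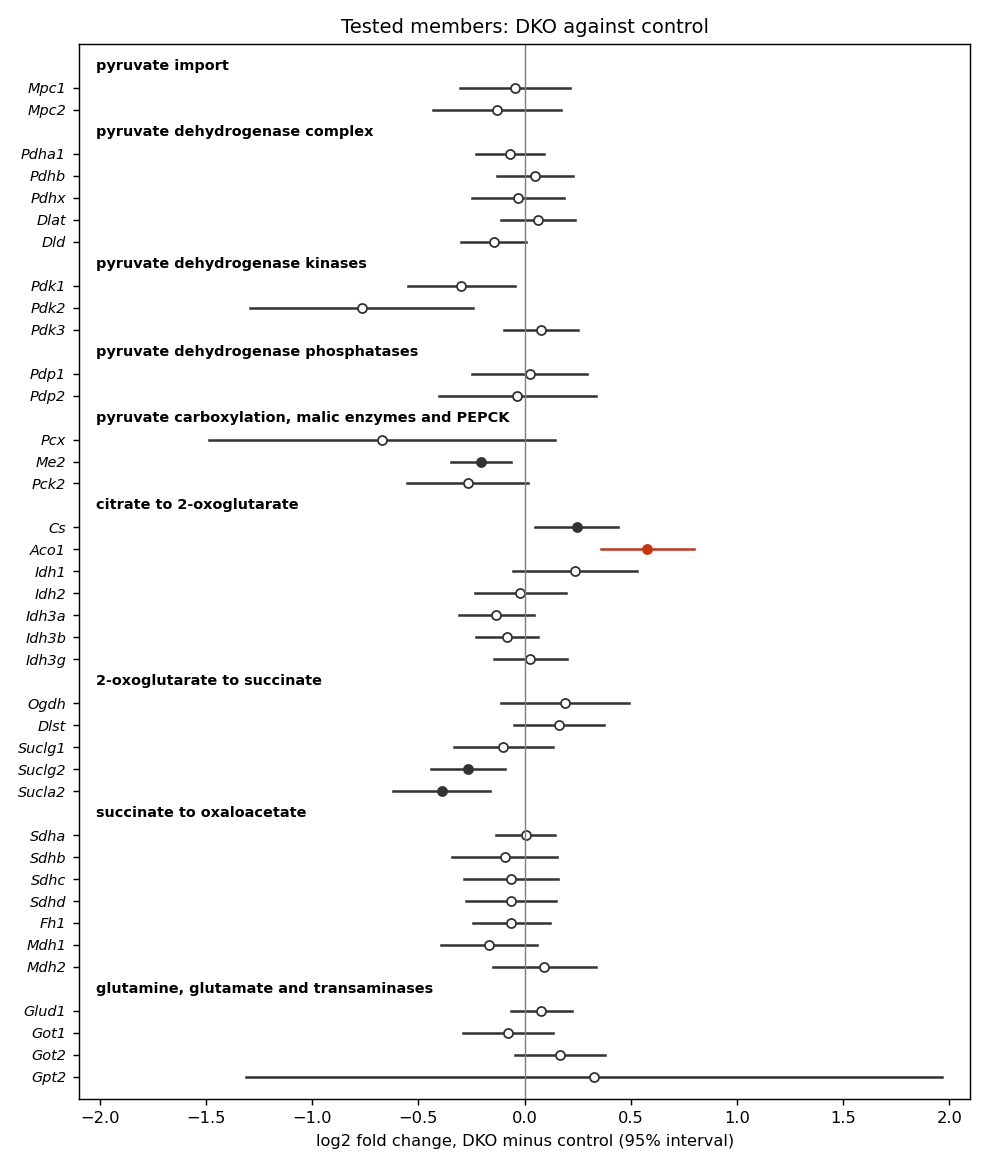
Log2 fold change of DKO against control (x axis) for the 38 tested genes, grouped by step, with 95% intervals from edgeR. Red marks the adjusted p under 0.05, filled points mark genes whose CPM did not overlap between the groups, and Aco1 at 0.58 is the only red point, while Gpt2 has the widest interval (-1.31 to 1.97).

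Promoter sequences are shown for 4 of the 5 genes without overlap between the groups, the genes for which the libraries of the groups were fully separated. Each is the 250 bases before the RefSeq start site, written 5′ to 3′ on the gene's strand, from the GRCm38.p6 RefSeq table. The windows lie at chr4:40143015-40143264 on the plus strand for Aco1, chr10:128337477-128337726 on the plus strand for Cs, chr6:95718847-95719096 on the minus strand for Suclg2 and chr14:73552536-73552785 on the plus strand for Sucla2. Capitals mark matches, on either strand, to CCAAT (the CCAAT box) and to GCGCANGCG (a core of the NRF1 motif), beside CACGTG (E-box), CCGGAAG (an ETS core) and TCAAGGTCA (an ERR element), which were searched as well.
Aco1: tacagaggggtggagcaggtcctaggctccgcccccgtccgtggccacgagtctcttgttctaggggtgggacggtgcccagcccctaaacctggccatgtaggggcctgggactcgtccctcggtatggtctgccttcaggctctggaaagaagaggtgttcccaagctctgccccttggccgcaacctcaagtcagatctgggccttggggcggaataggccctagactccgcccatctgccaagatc
Cs: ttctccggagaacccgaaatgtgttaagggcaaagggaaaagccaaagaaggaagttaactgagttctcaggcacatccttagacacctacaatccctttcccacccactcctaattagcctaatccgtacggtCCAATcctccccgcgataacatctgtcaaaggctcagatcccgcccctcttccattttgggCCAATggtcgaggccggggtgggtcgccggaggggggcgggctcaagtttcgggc
Suclg2: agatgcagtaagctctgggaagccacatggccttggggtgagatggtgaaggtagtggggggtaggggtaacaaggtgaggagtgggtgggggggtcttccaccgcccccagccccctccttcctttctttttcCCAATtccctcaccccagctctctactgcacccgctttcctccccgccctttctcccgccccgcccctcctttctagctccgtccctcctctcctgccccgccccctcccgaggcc
Sucla2: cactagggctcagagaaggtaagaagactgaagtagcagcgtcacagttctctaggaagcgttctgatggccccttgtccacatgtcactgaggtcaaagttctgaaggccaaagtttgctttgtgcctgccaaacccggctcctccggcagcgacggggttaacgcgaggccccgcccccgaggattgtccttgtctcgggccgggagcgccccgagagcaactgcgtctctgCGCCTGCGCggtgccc
Cs held CCAAT beginning 116 and 55 bases before its start site, and Suclg2 held it 116 bases before. Sucla2 held the NRF1 core 16 bases before its start site, and the Aco1 window held none of the 5. Of the 42 genes, 37 were in the table, and CCAAT occurred in 22 of those 37 (59.5%) and in 37.5% of all 27025 genes' windows. The NRF1 core occurred in 4 of the 37, Ogdh, Sucla2, Sdha and Sdhd, and in 5.86% of all windows. CACGTG was in 4 (Pdk2, Pdp2, Pcx and Ogdh, 6.86% of all), CCGGAAG in 4 (Mpc1, Idh3g, Sdhd and Glud1, 7.83% of all) and TCAAGGTCA in 0 (0.422% of all). A match is a description of letters, not a bound site.

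Pyruvate enters the mitochondrion through a carrier of MPC1 and MPC2, and neither gene passed the test. Mpc1 measured 14.5, 11.1, 11.2 and 12.0 CPM in control replicates 1 to 4 and 12.2, 11.3, 10.6, 12.1 and 12.8 CPM in DKO replicates 1 to 5. Its groups overlapped, with control replicate 1 highest, and its log2 fold change was -0.046 (SE 0.12, 95% interval -0.31 to 0.21). Mpc2 measured 91.4, 57.6, 54.9 and 60.4 CPM in control replicates 1 to 4 and 58.6, 60.4, 57.4, 63.9 and 61.8 CPM in DKO replicates 1 to 5. Control replicate 1 stood well above the other 8 libraries, and the log2 fold change of -0.13 (SE 0.14) turned to 0.055 without that library. The Mpc1 counts are uncertain, because the counts of the separate strands summed to 2.25 times the unstranded count, as happens where genes on opposite strands overlap.

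The pyruvate dehydrogenase complex, which turns pyruvate into acetyl-CoA, had none of its 5 subunit genes past the threshold. The fitted log2 fold changes ran from -0.15 for Dld to 0.062 for Dlat, and all 5 intervals lay within 0.5 of 0. Pdhb, the beta subunit of the first enzyme and the highest of the 5 per kilobase of exon (40.7 CPM per kilobase, RPKM, in control), measured 183, 152, 148 and 145 CPM in control replicates 1 to 4 and 161, 165, 159, 158 and 168 CPM in DKO replicates 1 to 5. Control replicate 1 was again the highest and the other control libraries were below all DKO libraries, with a log2 fold change of 0.047 (SE 0.082, 95% interval -0.13 to 0.23). Pdhx, the component that tethers the third enzyme, was the lowest of the 5 at 6.39 RPKM in control and measured 28.2, 24.1, 26.4 and 21.7 CPM in control replicates 1 to 4 and 24.3, 22.7, 25.7, 25.0 and 25.1 CPM in DKO replicates 1 to 5. The groups overlapped, with a log2 fold change of -0.031 (SE 0.098). Dld, the lipoamide dehydrogenase shared with the 2-oxoglutarate complex, measured 138, 131, 136 and 119.5 CPM in control replicates 1 to 4 and 119, 119, 117, 117 and 121 CPM in DKO replicates 1 to 5. DKO replicates 1 to 4 lay just below every control library and DKO replicate 5 lay inside the control range, and the log2 fold change was -0.15 (SE 0.070, edgeR with Benjamini-Hochberg adjustment, adjusted p = 0.345). Pdha1, the alpha subunit carrying the regulatory phosphorylation sites, ran from 91.7 to 110.0 CPM over the 9 libraries, and its strand counts summed to 1.72 times the unstranded count, so its level is uncertain. Dlat, the acetyltransferase core, ran from 82.3 to 100.4 CPM.

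The kinases that phosphorylate and switch off this complex had no member past the threshold, and 2 of the 3 tested had lower values in DKO. Pdk3 was the highest kinase gene per kilobase of merged exons, at 19.2 RPKM in control and 20.2 in DKO, against 4.96 and 4.03 for Pdk1 and 2.29 and 1.35 for Pdk2. In CPM the control means of Pdk3 and Pdk1 were closer, at 49.1 and 38.6. Their merged exons span 2561 and 7779 bases. Pdk1, the isoform induced by hypoxia, measured 37.8, 39.4, 33.3 and 43.7 CPM in control replicates 1 to 4 and 29.0, 28.1, 38.5, 30.1 and 31.1 CPM in DKO replicates 1 to 5. DKO replicate 3 lay within the control range and the other DKO libraries lay below every control library, with a log2 fold change of -0.30 (SE 0.12, edgeR with Benjamini-Hochberg adjustment, adjusted p = 0.230). Pdk2 measured 6.29, 7.50, 4.05 and 11.2 CPM in control replicates 1 to 4 and 4.41, 4.27, 4.37, 3.70 and 4.59 CPM in DKO replicates 1 to 5. The DKO libraries were close together, while control spread widely and control replicate 3 lay among them.

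The log2 fold change of Pdk2 was -0.77 (SE 0.24, adjusted p = 0.125 by edgeR's quasi-likelihood test, Benjamini-Hochberg), the largest in size of the 38 genes. It was -0.48 without control replicate 4 (edgeR adjusted p = 0.291) and -0.96 without control replicate 3 (edgeR adjusted p = 0.0317). It was also past the threshold by the DESeq2 Wald test and by limma-voom, so its side depended on the test as well as on the control libraries included. Pdk3 measured 48.4, 53.1, 46.6 and 48.3 CPM in control replicates 1 to 4 and 47.7, 51.2, 51.8, 52.0 and 56.4 CPM in DKO replicates 1 to 5. Its groups overlapped and its log2 fold change was 0.077 (SE 0.081). Pdk4, the isoform that rises with fasting, had 7 counts in all of control and 1 in all of DKO, too few to be tested.

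Neither of the phosphatases that switch the complex back on passed the test. Pdp1, the calcium-sensitive catalytic subunit, measured 25.1, 25.4, 28.6 and 20.7 CPM in control replicates 1 to 4 and 29.8, 22.2, 25.2, 22.4 and 27.2 CPM in DKO replicates 1 to 5. Its groups overlapped with a log2 fold change of 0.024 (SE 0.12, 95% interval -0.25 to 0.29). Pdp2 measured 10.1, 11.4, 12.8 and 8.16 CPM in control replicates 1 to 4 and 11.3, 12.3, 8.72, 11.4 and 8.04 CPM in DKO replicates 1 to 5. Its groups overlapped as well, with a log2 fold change of -0.035 (SE 0.17, 95% interval -0.40 to 0.33). The sign of both values changed in some of the alternatives tried.

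Among the genes that join pyruvate to oxaloacetate and malate, Me2 carried nearly all of the level and no gene passed the test. Me2, the mitochondrial NAD-dependent malic enzyme that turns malate into pyruvate, measured 283, 299, 294 and 279.6 CPM in control replicates 1 to 4 and 247, 238, 251, 253 and 264 CPM in DKO replicates 1 to 5. Every DKO library was below every control library, and the means were 289 ± 9.20 (SD, n = 4) for control and 251 ± 9.31 CPM (SD, n = 5) for DKO. The log2 fold change was -0.21 (SE 0.065, edgeR with Benjamini-Hochberg adjustment, adjusted p = 0.131). The cytosolic Me1 had 1 count in control and 6 in DKO, Me3 had 1 and 0, where a count of 0 allows up to 3 counts or 0.0117 CPM, and neither was tested. Me2 therefore made up 99.97% or more of the per-length level of the 3 malic enzymes in every library.

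Pcx, pyruvate carboxylase, which makes oxaloacetate from pyruvate, was near the low end of the 38 genes (0.700 RPKM in control). It measured 2.02, 2.00, 6.95 and 2.34 CPM in control replicates 1 to 4 and 1.96, 2.90, 1.77, 2.12 and 1.65 CPM in DKO replicates 1 to 5. Control replicate 3 stood alone, and the log2 fold change of -0.67 (SE 0.37, edgeR adjusted p = 0.415) was -0.025 without that library. Pck2, the mitochondrial PEP carboxykinase that takes oxaloacetate out of the cycle, ran from 8.32 to 11.2 CPM in control and from 6.87 to 8.44 CPM in DKO, and its log2 fold change was -0.27 (SE 0.13, edgeR adjusted p = 0.347). All 3 tested genes of this step had fitted values below 0, from -0.67 to -0.21.

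From citrate to 2-oxoglutarate, Aco1 rose, Cs was higher in every DKO library without passing the test, and the isocitrate dehydrogenases showed no difference past the threshold. Aco1 encodes the cytosolic aconitase, which interconverts citrate and isocitrate and, without its iron-sulfur cluster, binds iron-responsive elements in RNA as IRP1. Its gene lies at chr4:40143081-40198338 on the plus strand in GENCODE M21, which starts inside the RefSeq window, so the annotations place its 5′ end differently. Aco1 measured 37.2, 47.2, 39.6 and 49.0 CPM in control replicates 1 to 4 and 65.8, 67.7, 66.2, 58.5 and 64.7 CPM in DKO replicates 1 to 5. Every DKO library was above every control library, and DKO replicate 4 came closest to control.

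The means were 43.3 ± 5.73 (SD, n = 4) for control and 64.6 ± 3.58 CPM (SD, n = 5) for DKO, a ratio of 1.49. The log2 fold change was 0.58 (SE 0.10, 95% interval 0.36 to 0.80, edgeR's quasi-likelihood test, Benjamini-Hochberg, adjusted p = 0.0126). It stayed past the threshold in 17 of the 18 alternatives, with log2 fold changes of 0.41 to 0.65 and adjusted p from 7.25e-06 to 0.0409, the exception being the fit with replicate number as a block (edgeR adjusted p = 0.119). With both libraries that stood apart removed, control replicates 1 and 3, the log2 fold change was 0.41 (SE 0.076, edgeR adjusted p = 0.0199). Per length Aco1 was the lowest of the 7 genes of this step in control (9.62 RPKM) and passed Idh1 in DKO (14.4 against 12.1 RPKM).

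Summed levels of other gene lists are given beside Aco1, and some of them were separated between the groups as well. The summed level of 20 cell cycle genes was 998 to 1180.1 CPM in control and 1318 to 2040.4 CPM in DKO, without overlap. Within DKO it was highest in replicate 5. The summed level of 10 myeloid marker genes was 162 to 197 CPM in control and 114 to 124 CPM in DKO, also without overlap. Of the 10, Ctss and Cd68 fell (means of 81.2 and 51.3 CPM, and of 29.2 and 16.8 CPM, edgeR adjusted p = 0.0073 and 0.014), and Itgam had means of 58.9 and 38.1 CPM. Lyz2 and Csf1r had higher means in DKO (2.43 and 5.85 CPM, and 1.84 and 2.37 CPM), with Lyz2 at 13.6 CPM in DKO replicate 1. Fcer1g and Adgre1 had means of 1.74 and 1.63 CPM and of 1.04 and 1.01 CPM, and Cd14, S100a8 and S100a9 were under 1 CPM in every library. B cell genes summed to 187 to 271 CPM in control and 195 to 215 CPM in DKO, nearly all of it Ighm, and CD4 T cell genes to 30.7 to 39.3 and 34.6 to 46.6 CPM. The CD8 T cell genes summed to 6999 to 9563 CPM in control and 6435 to 7086 CPM in DKO, and 1 of them, Cd8b1, fell by 0.40 (SE 0.093, edgeR adjusted p = 0.0428). Cd8b1 was past the threshold in 9 of the 18 alternatives and in 1 of the 9 that left out a library (edgeR adjusted p up to 0.127). The part of these features in the Aco1 difference was not tested.

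Cs, citrate synthase, joins acetyl-CoA to oxaloacetate at the start of the cycle and measured 189, 250.4, 246 and 243 CPM in control replicates 1 to 4 and 278, 267, 275, 269.5 and 287 CPM in DKO replicates 1 to 5. Every DKO library was above every control library, but control replicate 1 stood far below the other 3. The means were 232 ± 28.6 (SD, n = 4) for control and 275 ± 8.16 CPM (SD, n = 5) for DKO, and the log2 fold change was 0.25 (SE 0.089, edgeR with Benjamini-Hochberg adjustment, adjusted p = 0.196). Without control replicate 1 it was 0.15 (SE 0.048, edgeR adjusted p = 0.111).

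The NADP-dependent isocitrate dehydrogenases differ in place, IDH1 in the cytosol and IDH2 in the mitochondrion. Idh1 measured 23.8, 33.1, 34.4 and 22.7 CPM in control replicates 1 to 4 and 34.4, 32.7, 34.6, 31.1 and 35.4 CPM in DKO replicates 1 to 5. Control replicates 1 and 4 were low, the other control libraries lay among the DKO libraries, and the log2 fold change was 0.24 (SE 0.13, edgeR adjusted p = 0.416). Idh2 ran from 43.7 to 56.2 CPM over the 9 libraries, with a log2 fold change of -0.021 (SE 0.098). The NAD-dependent enzyme of the cycle is built from Idh3a, Idh3b and Idh3g, whose fitted values were -0.13, -0.083 and 0.026 with overlapping groups. Idh3g, the highest of the 7 genes per length (50.4 RPKM in control), measured 143, 138, 125 and 138 CPM in control replicates 1 to 4 and 129, 137, 133, 154 and 140.3 CPM in DKO replicates 1 to 5. The highest value was in DKO replicate 4 and the lowest in control replicate 3, so the groups spread over the same range.

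**Figure D2:**
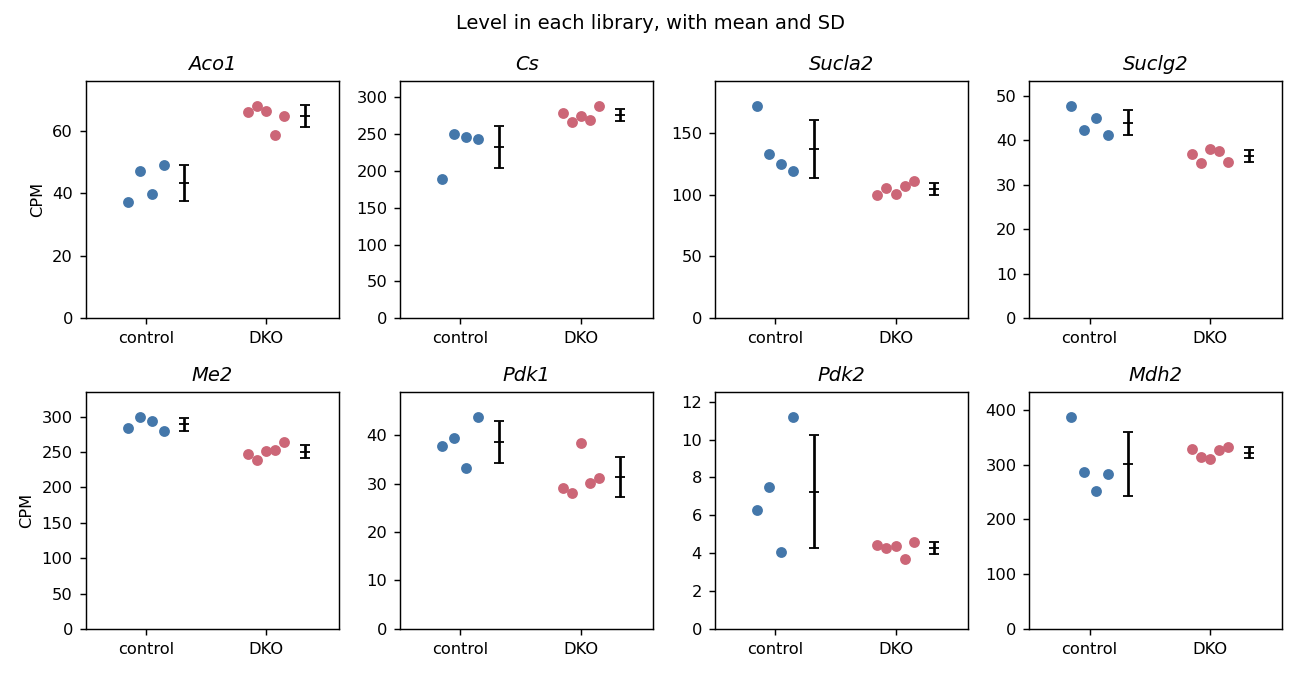
CPM (y axis, from 0) in each of the 4 control and 5 DKO libraries for 8 genes, with mean and SD as bars beside the points. Aco1 and Cs are higher in every DKO library (Aco1 58.5 to 67.7 against 37.2 to 49.0 CPM), Sucla2, Suclg2 and Me2 are lower in every DKO library, and Pdk1, Pdk2 and Mdh2 overlap.

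From 2-oxoglutarate to succinate, both alternative beta subunits of succinyl-CoA synthetase were lower in every DKO library, and neither passed the test. The enzyme pairs the alpha subunit SUCLG1 with SUCLA2 to make ATP or with SUCLG2 to make GTP. Sucla2 measured 171, 133, 125 and 119.6 CPM in control replicates 1 to 4 and 100.1, 105, 100.3, 107 and 111 CPM in DKO replicates 1 to 5. Every DKO library was below every control library, and control replicate 1 was the highest of all 9.

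The means were 137 ± 23.4 (SD, n = 4) for control and 105 ± 4.71 CPM (SD, n = 5) for DKO, and the log2 fold change was -0.39 (SE 0.10, edgeR with Benjamini-Hochberg adjustment, adjusted p = 0.0795). Without control replicate 1 it was smaller, at -0.28 (SE 0.059), and past the threshold (edgeR adjusted p = 0.0216). GENCODE M21 places the gene at chr14:73525319-73596142 on the plus strand, starting before the RefSeq window printed above. Suclg2 measured 47.6, 42.3, 44.9 and 41.1 CPM in control replicates 1 to 4 and 36.8, 34.9, 38.0, 37.6 and 35.2 CPM in DKO replicates 1 to 5. Every DKO library was below every control library here too, with means of 44.0 ± 2.90 (SD, n = 4) for control and 36.5 ± 1.39 CPM (SD, n = 5) for DKO. The log2 fold change was -0.27 (SE 0.080, edgeR with Benjamini-Hochberg adjustment, adjusted p = 0.108). Suclg1, the shared alpha subunit, measured 133, 102, 89.6 and 98.2 CPM in control replicates 1 to 4 and 97.0, 97.3, 97.5, 104 and 97.3 CPM in DKO replicates 1 to 5. The DKO libraries lay inside the control range, with control replicate 1 high and control replicate 3 low, and the log2 fold change was -0.10 (SE 0.11).

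Ogdh, the first component of the 2-oxoglutarate dehydrogenase complex, was the highest of this step per length (83.8 RPKM in control) and measured 303, 496, 500.1 and 530.1 CPM in control replicates 1 to 4 and 525, 533, 529.6, 482 and 541 CPM in DKO replicates 1 to 5. Control replicate 1 stood far below the other 8 libraries, and the log2 fold change of 0.19 (SE 0.14) was 0.024 without it. Dlst, the succinyltransferase core of that complex, ran from 89.7 to 121 CPM in control and from 115 to 129 CPM in DKO. Its groups overlapped, with a log2 fold change of 0.16 (SE 0.097).

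From succinate to oxaloacetate, none of the 7 genes passed the test, and all 7 intervals lay within 0.5 of 0. These were the most abundant transcripts of the 38 per length: Sdhd, Mdh1, Sdha, Sdhb and Mdh2 held the first 5 places in control. Succinate dehydrogenase, also complex II of the respiratory chain, is built from Sdha, Sdhb, Sdhc and Sdhd. Sdhd, the small membrane anchor, had the highest level of all (118 RPKM in control and 113 in DKO) and measured 178, 142, 126 and 134 CPM in control replicates 1 to 4 and 137, 136, 140.2, 143 and 138 CPM in DKO replicates 1 to 5. Apart from control replicate 1 the libraries lay between 126 and 143 CPM, and the log2 fold change was -0.064 (SE 0.098). Sdha, the flavoprotein that oxidises succinate, had a log2 fold change of 0.0046 (SE 0.064, 95% interval -0.14 to 0.15), one of the narrowest intervals. Sdhb, the iron-sulfur subunit, and Sdhc, the other anchor, had fitted values of -0.095 and -0.066. Both were highest in control replicate 1 (259 and 118 CPM).

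Fh1, fumarase, was the lowest of this step at 15.2 RPKM in control and measured 53.9, 52.5, 48.2 and 51.7 CPM in control replicates 1 to 4 and 48.0, 45.8, 47.2, 54.3 and 51.8 CPM in DKO replicates 1 to 5. The groups overlapped and the log2 fold change was -0.062 (SE 0.082). Mdh1, the cytosolic malate dehydrogenase, measured 351, 271, 243 and 266 CPM in control replicates 1 to 4 and 246, 251, 236, 265 and 261 CPM in DKO replicates 1 to 5. Its groups overlapped, with control replicate 1 far above the rest and a log2 fold change of -0.17 (SE 0.10). Mdh2, the mitochondrial form that closes the cycle, measured 387, 286, 253 and 283 CPM in control replicates 1 to 4 and 329, 314, 310.2, 326 and 332 CPM in DKO replicates 1 to 5. Control replicate 1 lay above all DKO libraries and the other 3 control libraries lay below all of them. The log2 fold change of Mdh2 was 0.093 (SE 0.11, edgeR adjusted p = 0.732), and without control replicate 1 it was 0.22 (SE 0.057, edgeR adjusted p = 0.0484).

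The genes of the glutamine and glutamate route included none past the threshold. Glud1, glutamate dehydrogenase, which turns glutamate into 2-oxoglutarate, had the highest level of this route (66.0 RPKM in control and 69.7 in DKO). It measured 266, 278, 276 and 292 CPM in control replicates 1 to 4 and 279, 289, 305, 305 and 290.1 CPM in DKO replicates 1 to 5. The DKO libraries lay from the middle of the control range to just above it, with a log2 fold change of 0.079 (SE 0.066, 95% interval -0.065 to 0.22). The aspartate aminotransferases of the malate-aspartate shuttle are GOT1 in the cytosol and GOT2 in the mitochondrion. Got1 measured 42.6, 38.7, 36.7 and 41.9 CPM in control replicates 1 to 4 and 33.9, 34.7, 37.9, 39.4 and 43.5 CPM in DKO replicates 1 to 5. Both groups covered nearly the same range, with a log2 fold change of -0.077 (SE 0.097). Got2 measured 52.3, 61.2, 54.5 and 64.9 CPM in control replicates 1 to 4 and 64.1, 57.0, 66.5, 65.9 and 73.0 CPM in DKO replicates 1 to 5. DKO replicate 5 was the highest and control replicate 1 the lowest, with overlap between the groups and a log2 fold change of 0.17 (SE 0.097, edgeR adjusted p = 0.443).

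The Got2 strand counts summed to 1.38 times the unstranded count, so its level is uncertain. Gpt2, the mitochondrial alanine aminotransferase, was the lowest gene tested, at 0 to 1.23 CPM, with 10, 70, 0 and 33 counts in control replicates 1 to 4 and 19 to 46 counts in the DKO libraries. Control spread on both sides of DKO, and the interval of -1.31 to 1.97 did not exclude a large difference in either direction. Gls2, the liver-type glutaminase, had 31 counts in all of control and 11 in all of DKO and was not tested. Its strand counts summed to 5.64 times the unstranded count.

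Genes of the same pathway outside the 42, the remaining cycle enzymes, assembly and lipoylation factors and carriers, were examined in the same fit. Of 31 such genes 27 were tested, and edgeR called 0, while 4 had an unadjusted p under 0.05. Of these, Lipt2, Slc25a11 and Slc1a5 had lower values (-0.95, -0.21 and -0.21). The Lipt2 value rests on 8 to 64 counts per library (0.136 to 1.13 CPM), with overlapping groups (edgeR adjusted p = 0.290). Slc1a5, the plasma membrane glutamine transporter, measured 699.7, 749, 677 and 814 CPM in control replicates 1 to 4 and 693, 627, 692, 529 and 629 CPM in DKO replicates 1 to 5. Its groups overlapped through DKO replicates 1 and 3 (edgeR adjusted p = 0.291).

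The order of the levels was nearly the same in both groups. Per length, the 38 tested genes ran in control from 118 RPKM for Sdhd to 0.0892 RPKM for Gpt2, with 26 genes above 10 RPKM. Spearman's rho between the control and DKO means was 0.996 across the 38 genes, given as a description since genes are not independent. Aco1 moved by more places than any other of the 38, from place 27 in control to 24 in DKO. Neighbours at the top of the order covered overlapping ranges over the 9 libraries, 102 to 144 RPKM for Sdhd and 91.9 to 137 for Mdh1, and 70.9 to 109 RPKM for Mdh2 and 55.6 to 99.1 for Ogdh.

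Within a library the ratio of related genes does not depend on the library's total, so shares of the per-length level were compared within enzyme families, as a description with no test. Mdh1 made up 55.7 to 57.2% of Mdh1 plus Mdh2 in control and 50.9 to 53.0% in DKO, without overlap. Control replicate 1, which had the highest Mdh1 and Mdh2 of all libraries, lay with the other control libraries in this share (55.7%). Got1 made up 54.6 to 60.7% of Got1 plus Got2 in control and 50.1 to 53.6% in DKO, again without overlap, although neither gene passed the test. In both pairs the cytosolic form had the smaller share in DKO. With the sum of the strand columns, an alternative chosen after seeing the data, the Mdh1 share was 55.8 to 57.2% and 51.0 to 53.0%, and the Got1 share was 46.1 to 52.8% and 42.2 to 45.7%, so which Got gene was the larger depended on the counting. Among all 666 pairs of the tested genes other than Gpt2, 108 had ratios that did not overlap between the groups (16.2%), so such a separation was not rare.

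The other families overlapped. Idh1 made up 29.2 to 42.2% of Idh1 plus Idh2 in control and 37.1 to 42.5% in DKO, and Mpc1 made up 35.96 to 41.8% and 39.5 to 42.3% of Mpc1 plus Mpc2. With the sum of the strand columns the Mpc1 share was 57.9 to 61.3% in control and 59.5 to 61.0% in DKO, so which subunit was the larger turned with the counting, and the groups overlapped in both. Suclg2 made up 19.3 to 23.7% of the 2 beta subunits in control and 21.4 to 24.6% in DKO, with 3 of the 5 DKO libraries inside the control range. Among the kinases, Pdk3 made up 67.3 to 76.6% in control and 76.2 to 80.2% in DKO, Pdk1 18.0 to 20.02% and 14.5 to 18.6%, and Pdk2 5.39 to 12.6% and 4.62 to 5.86%.

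**Figure D3:**
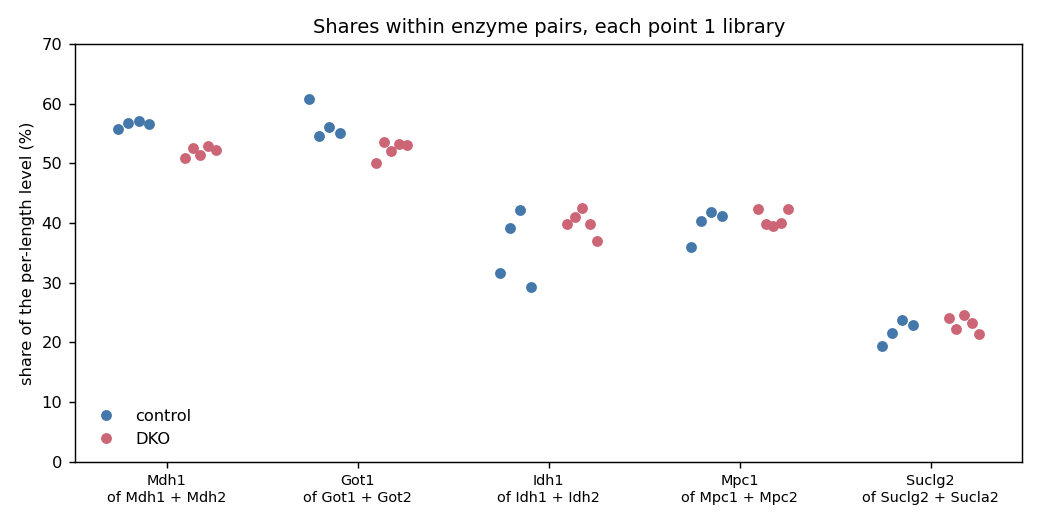
Share of the per-length level (y axis, percent) of the first gene of 5 enzyme pairs, each point 1 of 4 control or 5 DKO libraries. The Mdh1 share (55.7 to 57.2% in control, 50.9 to 53.0% in DKO) and the Got1 share do not overlap between the groups, and the other 3 pairs overlap.

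The 38 genes varied more among the control libraries than among the DKO libraries. This spread was not computed over all genes, so it is not shown to be particular to the 38. Control replicates 1 and 3 also lay apart on the principal components over all genes. The median SD of log2 CPM was 0.185 in control and 0.0733 in DKO, and 29 of the 38 genes had the larger SD in control. Without control replicate 1 the median SD in control was 0.0855, and 24 genes had the larger SD in control. Control replicate 1 differed from the mean of the other control libraries by a median of 0.221 on the log2 CPM scale in either direction, and the other 8 libraries differed from the mean of the rest of their group by 0.0449 to 0.159. In that library Ogdh, Cs and Dlst were low, by 0.75, 0.38 and 0.37 on the log2 scale against the mean of the other control libraries, while Mpc2, Mdh2, Sdhb and Suclg1 were high by 0.67, 0.50, 0.49 and 0.46.

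The heat map by library shows this pattern as a single column apart from the rest. The genes past the threshold differed between settings. With control replicate 1 left out, 4 of the 38 genes passed, Aco1 and Mdh2 on the higher side and Me2 and Sucla2 on the lower side, beside 4.93% of all genes. With control replicate 3 left out, 2 passed, Aco1 and Pdk2, beside 2.25% of all genes. The DESeq2 Wald test called 5, Aco1 as higher and Me2, Suclg2, Sucla2 and Pdk2 as lower, beside 6.96% of all genes. In limma-voom 4 passed, Aco1 as higher and Me2, Sucla2 and Pdk2 as lower, beside 6.68% of all genes. With 1 surrogate variable as a covariate 6 passed, Aco1, Cs and Mdh2 as higher and Me2, Suclg2 and Sucla2 as lower, beside 8.37% of all genes.

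**Figure D4:**
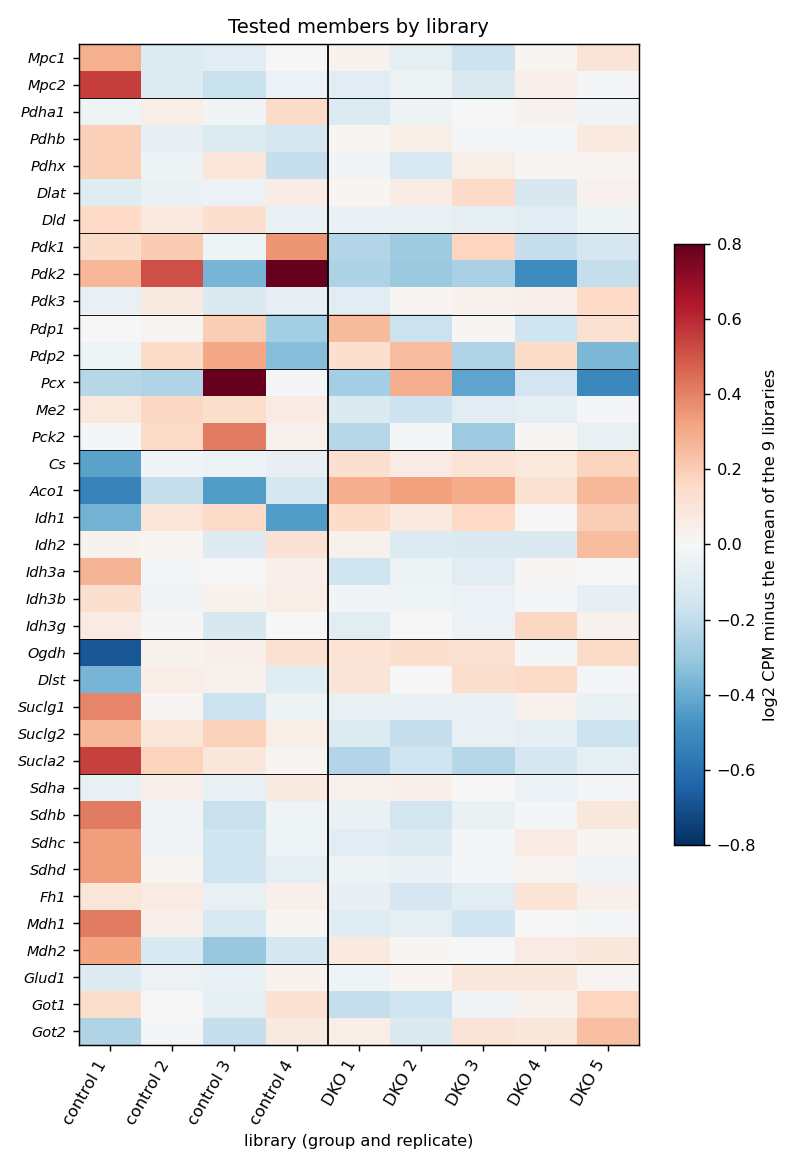
Log2 CPM minus the mean of the 9 libraries (colour, red higher and blue lower, drawn to 0.8 in either direction) for 37 tested genes (rows, by step) in each library (columns); Gpt2 is left out for its low counts. Control replicate 1 stands out, with Ogdh at 303 CPM against 482 or more in the other libraries, and the rows of Aco1 and Cs are red across all 5 DKO libraries.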

How the data were processed

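Per the labels' protocols, libraries were prepared from Qiagen-extracted polyA RNA using Takara SMART-Seq v4 followed by Illumina Nextera Flex. The files the authors deposited hold raw counts for each gene, without normalisation, and 1 file belongs to each library. The submitters' processing notes name Trim Galore 0.6.0, STAR 2.7.8a and mm10, with no role given, and for the annotation and read filters nothing is given in the sources used here. The unstranded column was used, since the first strand held 49.9 to 50.1% of the strand counts. Library sizes exclude the lines that are no gene: ambiguous (4.97 to 5.31% of a library), multimapping (5.80 to 6.79%), unmapped (10.3 to 16.7%) and outside any feature (4.01 to 5.20%). Control replicate 1 held the highest unmapped share, 16.7% against 10.3 to 12.3% in the other libraries. It also held the highest multimapping share (6.79%) and the lowest share in genes, 67.0% against 71.8 to 74.0%. Of 55471 identifiers, 55230 matched GENCODE M21 without the version number.

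The main test was that of edgeR 4.0.16, run in R 4.3.3 (robust quasi-likelihood F-test, TMM factors of 0.987 to 1.03, filterByExpr with a minimum count of 10 and total of 15), with Benjamini-Hochberg adjustment over the 14918 genes kept and a threshold of 0.05. Computed here were CPM and, per kilobase of merged exons, RPKM. The merged exons join those of every annotated transcript of a gene and can be longer than the transcript expressed. Orders and shares per length between genes therefore depend on the annotation. Other fits used limma 3.58.1, DESeq2 1.42.0 and sva 3.50.0, and 18 alternatives were tried. The 42 genes and all lists were chosen with earlier results of these data known. Text names genes past the threshold in any fit, without overlap between the groups, with an unadjusted p under 0.05, or highest or lowest per length in a step, and gives the rest by range.

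The test was checked on simulated counts, with 200 genes changed before the filter, which kept 14607 genes. Of edgeR's calls 3.66% were false, and it recovered 63.3% of genes changed by 1 and 17% of those changed by 0.5 on the log2 scale. DESeq2 made 25.7% false calls there and limma-voom 2.56%. The counts were drawn for each gene on its own, so no simulated library shifted many genes together, as control replicate 1 did. These shares do not cover such a shift. No 2 libraries of a group agreed within sampling noise (chi-square per degree of freedom of 9.75 or more). Replicate numbers occur in both groups, but the labels do not say that they pair libraries, so they were not treated as pairs. Same-numbered libraries did not deviate together (correlations of -0.117 to 0.0124 over 4 pairs), which cannot exclude a shared source. Intervals cover counting and replicate error between these libraries only. Values of some genes of the pathway list are not reported here.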

Additional observations from a re-analysis of the deposited data

Results flagged for a closer look

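Of 76 sets of values examined (38 genes in each group), 7 held a library far from the rest of its group, where chance gives about 1 in 20. Control replicate 1 was the library in 4 of them. It was high for Mpc2, at 91.4 CPM against 54.9 to 60.4 in the other control libraries, and for Idh3a, at 220.4 CPM against 181 to 188. It was low for Cs, at 189 CPM against 243 to 250.4, and for Ogdh, at 303 CPM against 496 to 530.1. Control replicate 3 was high for Pcx, at 6.95 CPM against 2.00 to 2.34. DKO replicate 4 was low for Ogdh, at 482 CPM against 525 to 541, and high for Suclg1, at 104 CPM against 97.0 to 97.5.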

How the results depend on the processing

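Over 18 alternatives, 621 of 683 values of single genes kept their direction and their side of the threshold, 17 crossed to past it and 1 crossed back (Aco1 with the replicate block). All genes past the threshold numbered 422. They numbered 1038 by the DESeq2 Wald test, 996 by limma-voom and 1248 with 1 surrogate variable, and 179 to 749 when leaving out each library in turn (749 without control replicate 1, 187 without control replicate 4 and 179 to 280 without each DKO replicate). Of the 38 genes, 5, 4 and 6 passed in the first 3 of these, 1 to 4 with a library left out, and 2 with control replicates 1 and 3 left out together. Their median log2 fold change was -0.0026 by limma-voom and ranged from -0.080 to 0.016 with a library left out. Of the 27 pathway genes, 1 passed by limma-voom and 0 to 1 with a library left out.

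The labels do not say whether replicate numbers pair the libraries, and no control library correlated best with the DKO library of its own number. With the replicate block, 67 of all genes and 0 of the 38 passed, and Aco1 had a log2 fold change of 0.58 (edgeR adjusted p = 0.119).

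The sign changed for 13 genes, Gpt2 and 12 others whose fitted values lay near 0. By limma-voom the values were 0.029 for Mpc1, 0.019 for Mpc2, 0.041 for Pdhx, -0.0012 for Idh3g, -0.018 for Sdha, 0.00019 for Sdhc and 0.0019 for Sdhd. With 1 surrogate variable they were 0.00060 for Mpc1 and -0.0011 for Sdha, with the stricter filter -0.011 for Sdha, and with the block -0.0041 for Pdp1 and 0.052 for Pdp2. With control replicates 1 and 3 left out they were 0.023 for Mpc1, 0.021 for Mpc2, 0.088 for Pdhx, 0.069 for Pdp2, -0.0058 for Idh3g, -0.064 for Sdha and -0.51 for Gpt2. With each library left out in turn, values ranged from -0.089 to 0.037 for Mpc1, -0.21 to 0.055 for Mpc2, -0.093 to 0.016 for Pdhx, -0.055 to 0.097 for Pdp1, -0.14 to 0.068 for Pdp2, -0.095 to 0.016 for Idh2, -0.016 to 0.051 for Idh3g, -0.17 to 0.015 for Suclg1, -0.027 to 0.031 for Sdha, -0.16 to 0.032 for Sdhb, -0.13 to 0.033 for Sdhc, -0.12 to 0.036 for Sdhd and -0.075 to 1.25 for Gpt2. The cause was not tested. Gpt2, at 0 to 1.23 CPM, did not pass the stricter filter, so it has no value there. Low counts kept Pdk4, Me1, Me3 and Gls2 from being tested.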
